A study of Mus musculus with 503 samples.

Results

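The genes described here bring glucose into the cell and break it down to lactate. They are *Slc2a1*, *Hk1*, *Hk2*, *Pfkp*, *Pfkfb3*, *Aldoa*, *Pgk1*, *Pgam1*, *Pkm* and *Ldha*, 10 of the 56701 gene rows of the deposited counts, and all 10 were found. They were chosen by symbol, with earlier results of these data known. They were measured in single cells around the blood vessels of the spinal cord of adult mice, with Smart-seq3 libraries, which read RNA along its full length. Every mouse carried GLAST-CreERT2, R26R-tdTomato and Pdgfrb-eGFP: a tamoxifen-dependent Cre driven by the gene of the glutamate transporter GLAST (*Slc1a3*), a tdTomato reporter that needs Cre, and eGFP under the control of *Pdgfrb*, which pericytes, vascular smooth muscle cells (vSMCs) and perivascular fibroblasts express. All were given tamoxifen before any injury, so tdTomato marks cells that used *Slc1a3* at that time and their progeny. EGFP+ cells with tdTomato (tdTomato+EGFP+, here tdTomato+) and without it (tdTomato-EGFP+, here tdTomato-) were collected from uninjured cord or 3 days after a complete crush (3d_SCI). The day follows the sample labels, and the series description names another one. The labels give every mouse as female, whereas the study's methods name both sexes for its sequencing. Plates 209 and 213 hold the uninjured cells (77 and 81 tdTomato+, 53 and 65 tdTomato-), and plates 211 and 215 hold the injured ones (88 and 34 tdTomato+, 58 and 47 tdTomato-).

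Glycolysis turns glucose into pyruvate with a small yield of ATP and without oxygen. Glucose enters through transporters such as GLUT1, the product of *Slc2a1*, hexokinases trap it as glucose 6-phosphate, phosphofructokinase commits it to the pathway, and lactate dehydrogenase turns pyruvate into lactate. In the central nervous system GLUT1 is abundant in the endothelial cells of the barrier between blood and tissue. Many genes of the pathway are known targets of the hypoxia-inducible factor HIF-1, whose binding sites have the core ACGTG or GCGTG.

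Since such sites are known from this pathway, promoter windows were read from RefSeq (GRCm38.p6), from 250 bases before to 50 after each start. All 10 genes matched, with 16 windows. Those of the transporter and of 3 enzymes that were higher after injury are printed 5′ to 3′ on the strand of the gene, with every ACGTG and GCGTG on either strand in capitals. They lie at chr4:119108495-119108794 (+) for *Slc2a1*, chr6:82774405-82774704 (-) for *Hk2*, chrX:106186850-106187149 (+) for *Pgk1* and chr7:46845554-46845853 (+) for the first window of *Ldha*.
Slc2a1: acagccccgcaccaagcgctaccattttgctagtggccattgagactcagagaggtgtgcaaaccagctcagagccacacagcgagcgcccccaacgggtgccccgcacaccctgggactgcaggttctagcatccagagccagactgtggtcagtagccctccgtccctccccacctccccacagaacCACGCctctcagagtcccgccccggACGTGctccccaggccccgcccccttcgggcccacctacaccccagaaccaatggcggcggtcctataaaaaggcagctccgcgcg
Hk2: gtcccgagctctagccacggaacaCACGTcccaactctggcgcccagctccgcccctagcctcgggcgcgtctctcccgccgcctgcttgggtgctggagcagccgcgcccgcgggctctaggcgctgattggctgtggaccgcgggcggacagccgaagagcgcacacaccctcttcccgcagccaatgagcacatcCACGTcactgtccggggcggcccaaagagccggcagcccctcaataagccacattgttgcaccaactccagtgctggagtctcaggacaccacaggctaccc
Pgk1: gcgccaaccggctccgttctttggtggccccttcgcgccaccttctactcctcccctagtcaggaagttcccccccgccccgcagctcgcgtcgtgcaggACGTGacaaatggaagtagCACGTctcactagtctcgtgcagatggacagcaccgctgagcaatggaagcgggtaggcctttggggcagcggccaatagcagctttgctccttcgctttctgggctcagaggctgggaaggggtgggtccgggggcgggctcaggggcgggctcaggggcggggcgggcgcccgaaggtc
Ldha: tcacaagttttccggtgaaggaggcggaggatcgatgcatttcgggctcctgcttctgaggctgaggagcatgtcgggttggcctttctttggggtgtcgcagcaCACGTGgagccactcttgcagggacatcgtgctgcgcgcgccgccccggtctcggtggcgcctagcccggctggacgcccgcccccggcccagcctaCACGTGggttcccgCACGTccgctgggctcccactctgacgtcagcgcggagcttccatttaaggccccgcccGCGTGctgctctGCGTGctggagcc
ACGTG stood on either strand in 11 of the 16 windows and in 9 of the 10 genes (2 overlapping windows of *Aldoa* share 1 match), against 19.6% of all 32851 windows and 21.8% of all 27025 symbols. *Pfkp* was the gene without it, and its window held GCGTG 4 times. The 16 windows had a median GC content of 65% against 52.7% over all windows, and among the windows within their range of GC content 23.9% held the first motif, ACGTG. Of all windows 32.4% held the other motif. The palindrome CACGTG, which holds ACGTG on both strands, stood in the printed window of *Ldha* and in 1 window of *Pfkfb3*, and in 7.15% of all windows. The window of *Slc2a1* held 1 match of each kind, so these letters are shared by the gene that was lower after injury and by genes that were higher. A match describes the letters of a window only.

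Of the 503 cells 468 were kept, with a median of 204006 to 271660 counts per cell in the 4 groups. Injury and plate cannot be told apart, since no plate holds both states, while both sorted populations lie on every plate. The 34 injured tdTomato+ cells of plate 215 were shallow (median 14770 counts), so the sums of that group follow plate 211. On plate 211, 420 rows held 100 counts or more and none elsewhere, and 323 rows were at 0 there with 100 or more on each other plate, but the 10 genes had counts on all 4 plates. No label names an animal, so each group is 1 sample and no test was made, and whether the plates of a state differ in animals, in handling or in both cannot be told apart. Levels are CPM, counts per 1e6 counts of the summed cells, and differences are of log2(CPM + 1). The median of all 11429 genes at 10 CPM or more differed by -0.59 after injury in tdTomato+ cells on the CPM scale and by 0.13 over 11437 genes with TMM factors (trimmed mean of M-values, which scale by the bulk of the genes), so both scales are given. In such sums alone, fewer cells of a type and less RNA per cell cannot be told apart, so values of single cells and of clusters are given below as well. *Slc1a3* was at 212 and 207 CPM in tdTomato+ and 31.5 and 10.7 CPM in tdTomato- cells, uninjured and injured, which is the direction of the sort.

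In tdTomato+ cells 6 of the 10 genes were higher after injury and 1 was lower. The higher ones were *Hk2*, *Pfkfb3*, *Pgk1*, *Pgam1*, *Pkm* and *Ldha*, and the lower one was the transporter *Slc2a1*. A gene was called when it reached 10 CPM in the higher group, differed 2-fold or more in the sums and kept its direction whichever injured plate was set against whichever uninjured plate. By this rule 10.8% of all genes were higher and 34.3% lower on the CPM scale, and 20.8% and 18.9% with TMM factors. Since the 10 genes were chosen with earlier results of these data known, their counts beside such shares, here and below, are a description only. Where plates of the states are said below not to overlap, the share of all genes that did the same was not computed. The same 7 of the 10 genes were called on both scales. The median difference of the 10 genes was 1.56 (1.29 to 1.52) on the CPM scale, with the range over the plate pairs in brackets here and below, and 2.23 (1.42 to 2.09) with TMM factors. The value of the sums can lie outside this range for medians over genes, for comparisons within plates, where the populations weight the plates differently, and with TMM factors, which were estimated separately for sums and plates.

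**Figure D1:**
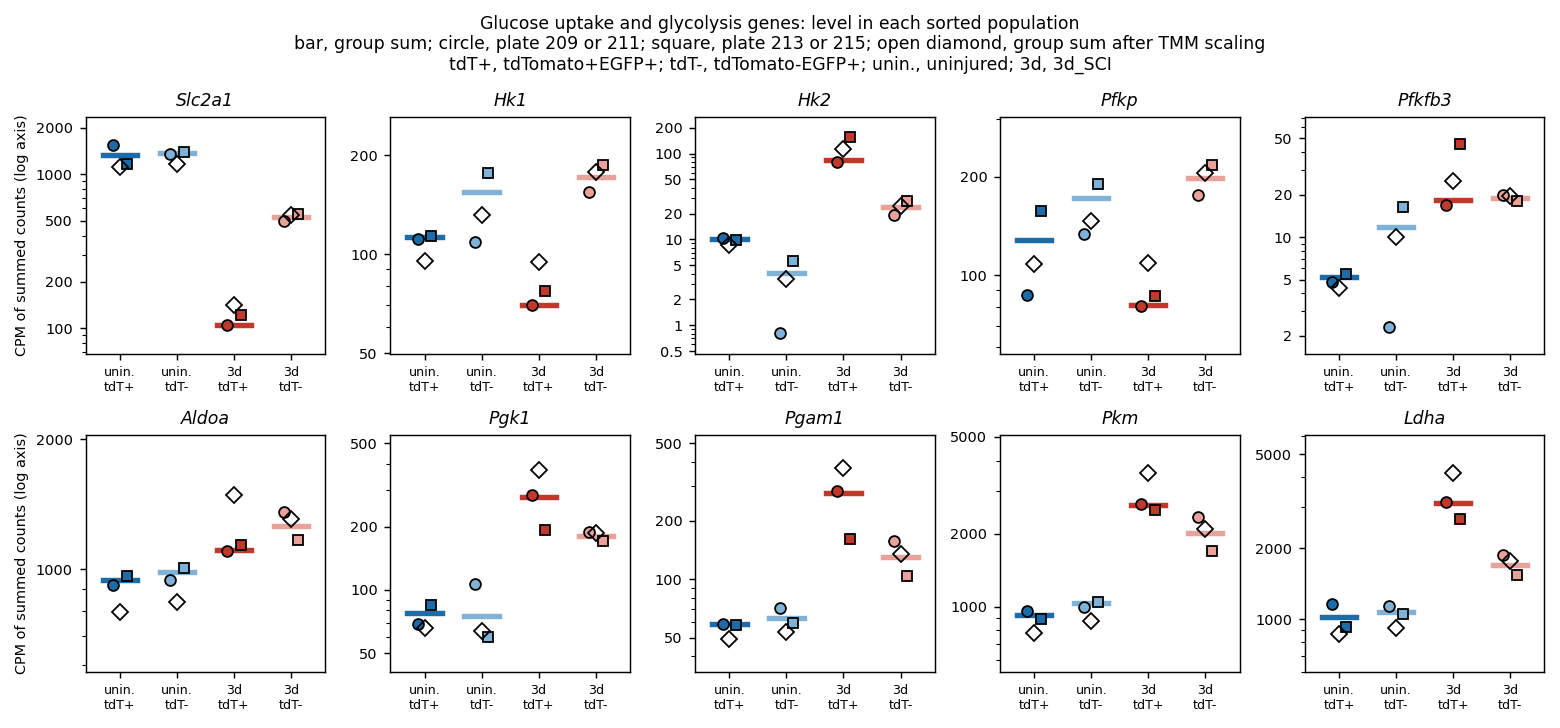
CPM of summed counts of the 10 genes (log axis) in the 4 groups, with the group sum as a short horizontal line, each plate as a circle or square and the sum after TMM scaling as an open diamond. *Pgk1*, *Pgam1*, *Pkm* and *Ldha* lay higher on both injured plates than on both uninjured plates in either sorted population, and *Slc2a1* lay lower.

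*Slc2a1*, the glucose transporter, was at 1546 and 1165 CPM on the uninjured and 104.7 and 121.6 CPM on the injured plates in tdTomato+ cells. In tdTomato- cells it was at 1345 and 1386 against 496 and 555 CPM. The states did not overlap in either population. The sums of tdTomato+ cells were 1324 CPM (1313 to 1336) and 105.6 CPM (102.1 to 109.3), with exact Poisson 95% intervals that cover counting error only, here and below. The difference was -3.64 (-3.87 to -3.25) in tdTomato+ and -1.38 (-1.48 to -1.27) in tdTomato- cells, and -2.96 and -1.09 with TMM factors. In injured tdTomato+ cells 1 cell held 16.6% of the *Slc2a1* counts.

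Endothelial RNA moved with *Slc2a1*. The sum of 9 endothelial markers, *Cldn5* and *Pecam1* among them, was 6779 CPM in uninjured tdTomato+ and 7259 CPM in uninjured tdTomato- cells, against 511 and 2444 CPM after injury. By plate it ranged from 5939 to 7946 CPM in the uninjured cells, from 259 to 525 CPM in injured tdTomato+ and from 1977 to 2957 CPM in injured tdTomato- cells. All 9 markers had counts in all 4 groups, with 5 at 0 in the shallow cells of plate 215, *Cldn5* among them. On the CPM scale 8 of the 9 were called lower after injury in either population, beside 34.3% and 17% of all genes, and *Cdh5* was not. With TMM factors 8 were called lower in tdTomato+ and 4 in tdTomato- cells, beside 18.9% and 11%. The cells had been sorted for EGFP, and 34 cells with *Pecam1* above *Pdgfrb* had been removed.

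Over single cells with 20000 counts or more, the Spearman correlation of *Slc2a1* with the endothelial sum was 0.77 in uninjured tdTomato+, 0.83 in uninjured tdTomato-, 0.03 in injured tdTomato+ and 0.52 in injured tdTomato- cells (92 cells or more each). The other 9 genes ranged from -0.42 to 0.44. These cells share plates, and both values are shares of 1 library. In the cells with 1000 CPM or less of the endothelial sum, *Slc2a1* was at 91.7 CPM (85.6 to 98.1) in uninjured and 83.8 CPM (80.6 to 87.2) in injured tdTomato+ cells, and at 181 CPM (169.6 to 194) and 194 CPM (188 to 201) in tdTomato- cells. The differences there were -0.13 (-0.48 to 1.57) and 0.10 (-0.74 to 2.32), small in the sums and of both signs over the plate pairs. The median of these cells, whatever their depth, was higher after injury in both populations. It was 12.45 CPM uninjured and 58.96 CPM injured in tdTomato+ cells, and 10.18 and 86.14 CPM in tdTomato- cells. The small differences of the sums therefore do not show that *Slc2a1* was unchanged in the typical cell with little endothelial RNA. In the cells over 1000 CPM *Slc2a1* was at 1716 CPM (1701 to 1731) and 1639.5 CPM (1623 to 1657) uninjured, at 1402 CPM (1375 to 1430.2) in 28 injured tdTomato- cells and at 635 CPM (592 to 681) in 5 injured tdTomato+ cells. The limit of 1000 CPM was chosen after the endothelial levels had been seen. In tdTomato+ cells at or under it *Cdh5* was at 67.8 CPM uninjured and 163 CPM injured, and *Cldn5* at 14.1 and 0.869 CPM. *Cdh5* was the highest of the 9 markers in these injured cells, so the endothelial sum there follows *Cdh5* more than the other markers.

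**Figure D2:**
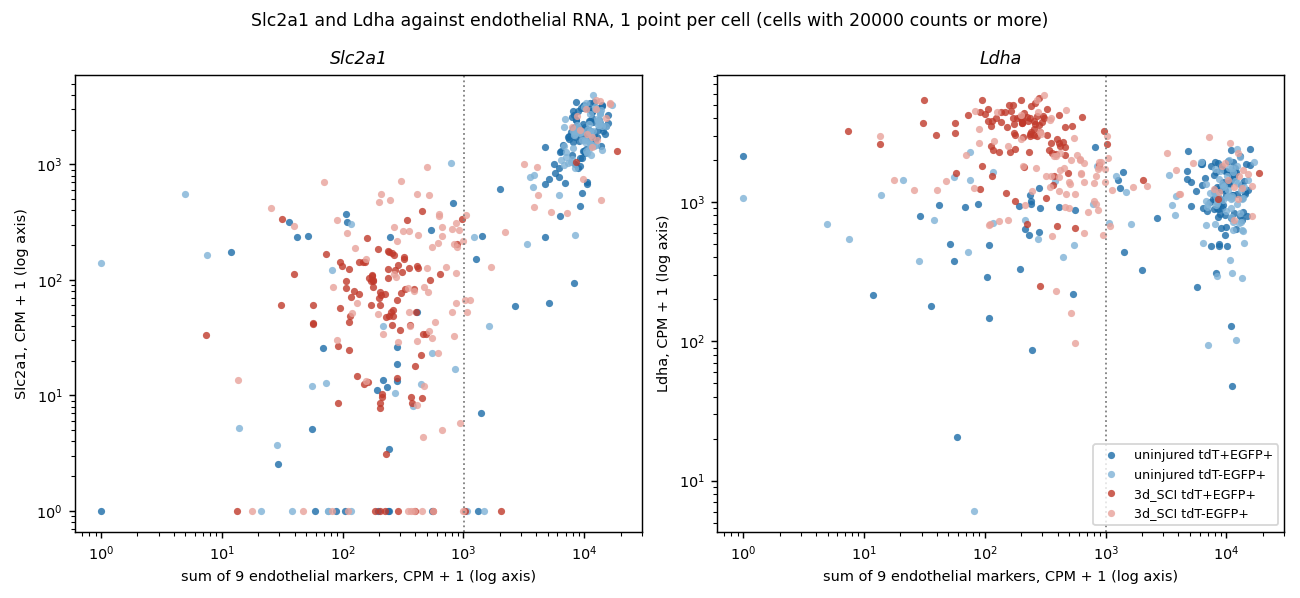
*Slc2a1* (left) and *Ldha* (right) in each cell with 20000 counts or more, in CPM + 1, against the sum of 9 endothelial markers in CPM + 1, on log axes and coloured by group, with a dotted line at 1000 CPM. High *Slc2a1* values lie mostly to the right of the line, and the highest *Ldha* values are of injured cells, mostly to its left.

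The enzymes of the lower pathway were also compared in the cells with little endothelial RNA. In tdTomato+ cells at or under 1000 CPM the difference was 1.83 (1.05 to 2.73) for *Pgk1*, 2.35 (1.48 to 2.51) for *Pgam1*, 2.45 (2.09 to 2.59) for *Pkm* and 2.27 (1.71 to 2.45) for *Ldha*. In tdTomato- cells it was 0.98 (0.25 to 1.69), 0.55 (0.08 to 0.92), 1.18 (0.82 to 1.67) and 0.89 (0.35 to 1.34) in the same order. All 4 genes were thus higher in every pair, but *Pgk1* and *Pgam1*, which were called over all tdTomato- cells, differed by less than 2-fold in these. The median of the 10 genes there was 1.79 (1.27 to 2.08) in tdTomato+ and 0.42 (0.35 to 0.83) in tdTomato- cells. Differences in the cells at or under 1000 CPM, here and elsewhere, are on the CPM scale only, with no value over all genes beside them. *Pfkp*, in contrast, was lower in these tdTomato+ cells in all 4 pairs, with a difference of -1.26 (-1.41 to -0.70).

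Of the hexokinases, *Hk2*, the inducible form of many tissues, was at 10.4 and 9.81 CPM on the uninjured and 80.6 and 154.4 CPM on the injured plates in tdTomato+ cells. In tdTomato- cells it was at 0.811 and 5.59 against 19.3 and 28 CPM. Every injured plate lay above every uninjured plate. The difference was 2.95 (2.83 to 3.85) in tdTomato+ and 2.30 (1.62 to 4.00) in tdTomato- cells, and 3.60 and 2.53 with TMM factors, the largest increase among the 10 genes in both. The uninjured level rests on few cells, since 1 cell held 36.7% of the *Hk2* counts in tdTomato+ and 78.9% in tdTomato- cells. For shares of cells, those with 20000 counts or more were thinned to that depth. The shallower ones were left out, 10 uninjured and 22 injured tdTomato+ cells and 14 and 1 tdTomato- cells. *Hk2* then had a count in 6.3% (2.76 to 12) of uninjured and 66% (55.8 to 75.2) of injured tdTomato+ cells, with exact binomial 95% intervals. In tdTomato- cells the shares were 3.26% (0.678 to 9.23) and 25.5% (17.4 to 35.1). Without thinning, over all kept cells, the 4 shares were 9.49%, 80.3%, 8.49% and 36.9%.

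*Hk1*, the form of most tissues, was not called after injury. It was at 111.4 and 114.02 CPM on the uninjured and 69.9 and 77.5 CPM on the injured plates in tdTomato+ cells, a difference of -0.68 (-0.70 to -0.52) that was -0.01 (-0.38 to -0.11) with TMM factors. In tdTomato- cells the plates overlapped, at 109.2 and 177 against 154.7 and 187 CPM. *Hk2* took 54.6% (53.2 to 56) of the *Hk1* and *Hk2* counts in injured tdTomato+ cells (53.6% and 66.6% on the plates), against 8.19% (7.43 to 9.01) in uninjured ones. In tdTomato- cells the share was 2.55% (2.1 to 3.06) uninjured and 12.2% (11.3 to 13.1) injured. In cells at or under 1000 CPM of endothelial RNA it was 20.8% and 56% in tdTomato+ cells.

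**Figure D3:**
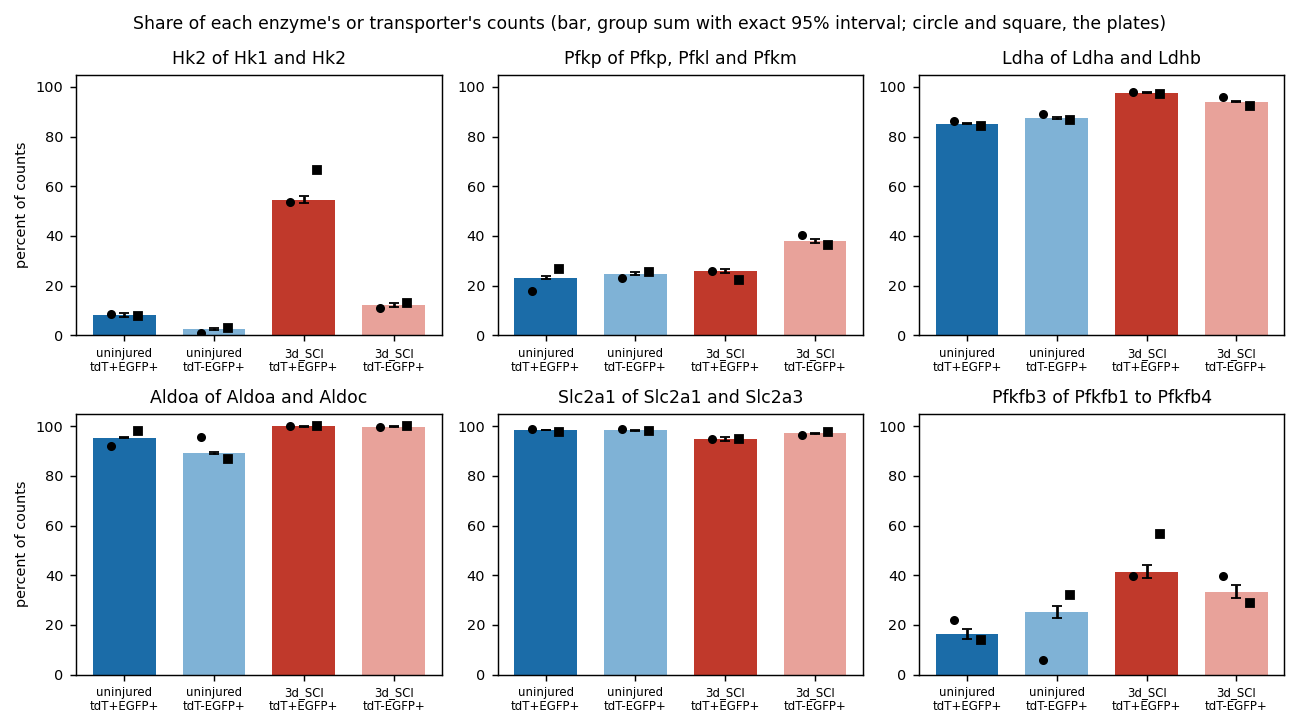
Percent of the counts of each set of related genes taken by the named gene in the 4 groups, with the group sum as a bar, its exact binomial 95% interval as an error bar (counting error only) and the plates as a circle and a square. *Hk2* took 54.6% in injured tdTomato+ cells and 12.2% or less in the other groups, and *Ldha* took 94.1% or more after injury.

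At the phosphofructokinase step, *Pfkp*, the platelet form, was not called after injury. It was at 87.1 and 157.5 against 80.6 and 86.5 CPM in tdTomato+ cells, a difference of -0.66 on the CPM scale and 0.01 with TMM factors. In tdTomato- cells it was at 133.97 and 190.1 against 177 and 218 CPM. Its share of the *Pfkp*, *Pfkl* and *Pfkm* counts was 23.3% uninjured and 25.7% injured in tdTomato+ cells, where the plates overlapped, and 24.7% and 37.9% in tdTomato- cells, where they did not. In cells at or under 1000 CPM of endothelial RNA both directions turned, with 45.7% uninjured and 24.3% injured in tdTomato+ and 49.8% and 43.8% in tdTomato- cells. Of the 1464 *Pfkp* counts of the uninjured tdTomato- cells there 1 cell held 553, so the turn in tdTomato- cells can rest on that cell, which was not tested. *Pfkfb3*, whose enzyme makes fructose 2,6-bisphosphate, an activator of phosphofructokinase, was at 4.79 and 5.46 against 16.8 and 45.9 CPM in tdTomato+ cells and was called, at 1.65 (1.46 to 3.02). The direction turned in the cells with 100 CPM or less of endothelial RNA (-1.10). It was at 10.3 CPM (37 counts) in 10 uninjured and 4.3 CPM (19 counts) in 25 injured cells there. In tdTomato+ cells at or under 1000 CPM *Pfkfb3* was higher after injury in every pair, by 1.76 (1.40 to 3.76). In such tdTomato- cells it took both signs, at -0.60 (-1.56 to 3.38). Over all tdTomato- cells it was at 2.32 and 16.3 against 19.8 and 18.1 CPM, a difference of 0.63 (0.14 to 2.65) that was not called. It had a count in 5.51% to 21% of the thinned cells of a group, so most cells showed none at this depth.

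*Aldoa*, the aldolase of muscle and most other tissues, differed by less than the 2-fold of the rule. It was at 916 and 961 against 1102 and 1140.0 CPM in tdTomato+ cells, and at 943 and 1006 against 1357 and 1169 CPM in tdTomato- cells, with both injured plates above both uninjured ones. The differences were 0.23 (0.20 to 0.32) and 0.35 (0.22 to 0.52) on the CPM scale and 0.90 and 0.64 with TMM factors. *Aldoa* held 89.4% to 99.9% of the *Aldoa* and *Aldoc* counts, and 1 cell held 64.7% of the *Aldoc* counts of the group with the lowest share, uninjured tdTomato-.

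*Pgk1*, phosphoglycerate kinase, was at 68.9 and 84.4 against 282 and 194 CPM in tdTomato+ and 106.8 and 59.7 against 189.7 and 172 CPM in tdTomato- cells. *Pgam1*, phosphoglycerate mutase, was at 58.8 and 58.1 against 284 and 159.8 CPM and 71.1 and 59.2 against 157.8 and 103.1 CPM. The uninjured and injured plates of these genes did not overlap in either population, and both genes were called in both. *Pgk1* differed by 1.82 (1.19 to 2.02) in tdTomato+ and 1.26 (0.68 to 1.65) in tdTomato- cells, and *Pgam1* by 2.23 (1.43 to 2.27) and 1.02 (0.53 to 1.40). With TMM factors these were 2.49, 1.54, 2.90 and 1.30. The share of thinned cells with a *Pgam1* count was 63.8% (54.8 to 72.1) uninjured and 95% (88.7 to 98.4) injured in tdTomato+ cells, and 56.5% (45.8 to 66.8) and 91.2% (83.9 to 95.9) in tdTomato- cells.

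*Pkm*, pyruvate kinase, was at 962 and 889 against 2636 and 2497 CPM in tdTomato+ and 992 and 1049 against 2346 and 1702 CPM in tdTomato- cells. *Ldha*, the lactate dehydrogenase subunit that favours lactate, was at 1163 and 927 against 3133 and 2669 CPM and 1139 and 1048 against 1872 and 1547 CPM. The injured plates lay above the uninjured ones throughout. In tdTomato+ cells *Pkm* differed by 1.51 (1.38 to 1.57) and *Ldha* by 1.60 (1.20 to 1.76), and by 2.19 and 2.27 with TMM factors. In tdTomato- cells *Pkm* differed by 0.96 (0.70 to 1.24), just under the 2-fold of the rule, and passed with TMM factors at 1.25. *Ldha* differed there by 0.66 (0.44 to 0.84) and by 0.94 with TMM factors, and was called on neither scale.

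Over single tdTomato+ cells with 20000 counts or more, the median of *Ldha* was 1061 CPM (quartiles 783 and 1547) uninjured and 3222 CPM (quartiles 2343 and 4032) injured. In tdTomato- cells it was 1054 CPM (quartiles 707 and 1421) and 1534 CPM (quartiles 1190.4 and 2176). The upper quartile of uninjured tdTomato+ cells lay under the lower quartile of injured ones, while in tdTomato- cells the quartile ranges overlapped. *Ldha* took 85.3% and 87.4% of the *Ldha* and *Ldhb* counts in the uninjured groups and 97.7% and 94.1% in the injured ones.

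In tdTomato- cells 3 of the 10 genes were higher after injury on the CPM scale, *Hk2*, *Pgk1* and *Pgam1*, and *Slc2a1* was lower. With TMM factors *Pkm* was added. Of all genes 9.52% were higher and 17% lower on the CPM scale, and 14.3% and 11% with TMM factors. The median of the 10 genes was 0.65 (0.39 to 0.77) on the CPM scale and 0.92 (0.48 to 1.11) with TMM factors, and that of all genes -0.20 and 0.10.

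**Figure D4:**
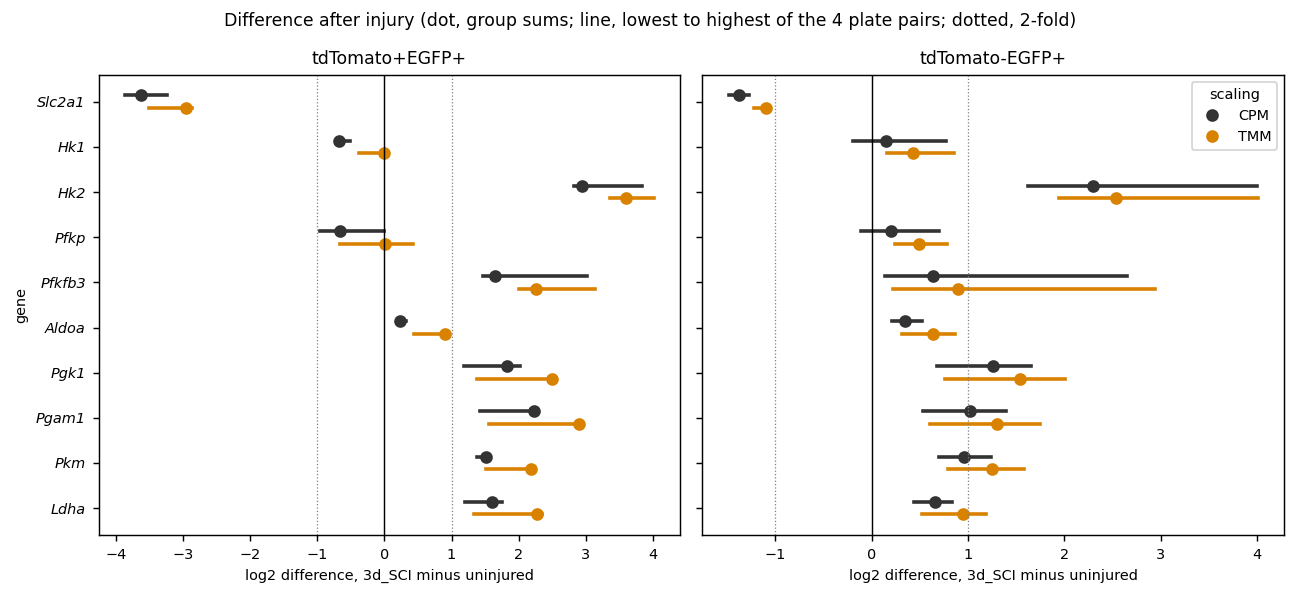
Difference of log2(CPM + 1) between injured and uninjured cells for each gene in the 2 sorted populations, on the CPM scale (dark) and with TMM factors (orange), with group sums as dots, the range over the 4 plate pairs as lines and dotted lines at a 2-fold difference. *Slc2a1* lay at -3.64 and -1.38 and *Hk2* at 2.95 and 2.30 on the CPM scale.

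The injury differences of the sorted populations were set against each other within plate pairs. *Slc2a1*, *Hk1* and *Pfkp* had the lower injury difference in tdTomato+ cells in all 4 pairs, by -2.26 (-2.43 to -1.93), -0.82 (-1.29 to -0.51) and -0.86 (-1.05 to -0.51). *Pgam1*, *Pkm* and *Ldha* had the higher one in all 4 pairs, by 1.21 (0.65 to 1.11), 0.55 (0.21 to 0.79) and 0.94 (0.71 to 0.96). These 6 directions held in all 4 pairs with TMM factors. The 4 pairs reuse the same plates, so they are not independent, and the share of all genes with a settled sign was not computed. The other 4 genes took both signs over the pairs. The median of the 10 genes was 0.56 in the sums but -0.38 to 0.34 over the pairs, so it had no settled sign. In the cells at or under 1000 CPM of endothelial RNA *Pgam1*, *Pkm* and *Ldha* again had the higher difference in all 4 pairs, by 1.80 (1.05 to 1.94), 1.27 (0.51 to 1.67) and 1.39 (1.10 to 1.38), while *Slc2a1* took both signs.

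In uninjured cord *Hk2* was the 1 gene called between the sorted populations, higher in tdTomato+ cells by 1.13 (0.71 to 2.66 over the 2 plates). With TMM factors it was under 10 CPM and none was called. Of all genes 4.31% were higher and 3.61% lower on the CPM scale, and 4% and 3.47% with TMM factors. The median of the 10 genes was -0.09 (-0.21 to -0.01), and *Slc2a1*, *Pkm* and *Ldha* differed by -0.05, -0.16 and -0.07. In the cells at or under 1000 CPM of endothelial RNA these 3 genes were lower in tdTomato+ cells on both plates. The differences were -0.98 (-1.20 to -0.17), -0.93 (-1.23 to -0.34) and -0.59 (-0.69 to -0.42), and the median of the 10 genes was -0.76 (-0.83 to -0.42). The populations differ in type, with 26 tdTomato+ and 8 tdTomato- uninjured cells in the perivascular fibroblast-like cluster described below and 3 and 14 in the vSMC-like one. Within the fibroblast-like cluster the 3 differences were 2.21, 0.30 and -0.27, and the median of the 10 genes was 0.05.

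After injury *Hk2* (1.79, plates 2.01 to 2.42) and *Pgam1* (1.10, plates 0.63 to 0.84) were higher in tdTomato+ than in tdTomato- cells on the CPM scale. *Slc2a1* (-2.31), *Hk1* (-1.28) and *Pfkp* (-1.28) were lower. With TMM factors *Ldha* (1.25) joined the higher genes, and *Hk1* (-0.90) and *Pfkp* (-0.91) were no longer called, though lower on both plates on either scale. Of all genes 4.31% were higher and 17.9% lower on the CPM scale, and 8.66% and 11.4% with TMM factors. In the cells at or under 1000 CPM of endothelial RNA the *Slc2a1* difference was -1.20, and within the perivascular fibroblast-like cluster (18 injured cells of each population) it was 0.79.

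The cells were clustered without the 10 genes and the other pathway genes, and the levels were then read in the 6 clusters. Cluster 1, in which injured tdTomato+ cells were the most, had 6 of 6 cell cycle markers raised beside 5 of 8 perivascular fibroblast and 5 of 7 stromal fibroblast markers, and was left unnamed. Clusters 2 and 3, mostly uninjured cells, had 9 of 9 endothelial and 8 of 9 pericyte markers raised and were left unnamed too. Their median endothelial sums were 10510.5 and 8267 CPM, so most of their cells were not among those at or under 1000 CPM. The uninjured and injured cells at or under that limit can thus differ in type as well as in state. Cluster 4 (70 cells) was perivascular fibroblast-like with 8 of 8 markers, cluster 5 (48 cells, 47 of them injured tdTomato-) pericyte-like with 7 of 9, and cluster 6 (18 cells) vSMC-like with 5 of 6. Of the 7 stromal fibroblast markers 4 were raised in cluster 4 and 4 in cluster 5, where 2 of 6 vSMC markers were raised too, and 1 pericyte marker was raised in cluster 6.

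*Slc2a1* was at 1846 and 1617 CPM in clusters 2 and 3 and at 56.3 to 268 CPM in the other 4. *Hk2* was at 87.1 CPM in cluster 1, 29.1 CPM in cluster 4 and 2.82 to 11.6 CPM elsewhere. *Pgk1* and *Pgam1* were at 287 and 283 CPM in cluster 1, followed by 193 and 128.9 CPM in cluster 5. The last steps of the pathway had the same order. *Pkm* was at 2704 and 2439 CPM in clusters 1 and 5 and 845 to 1223 CPM elsewhere. *Ldha* was at 3063 and 1797 CPM and 881 to 1190.3 CPM. *Pfkp* had another order, with 289.6 CPM in the vSMC-like cluster and 110.8 to 185 CPM in the others.

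**Figure D5:**
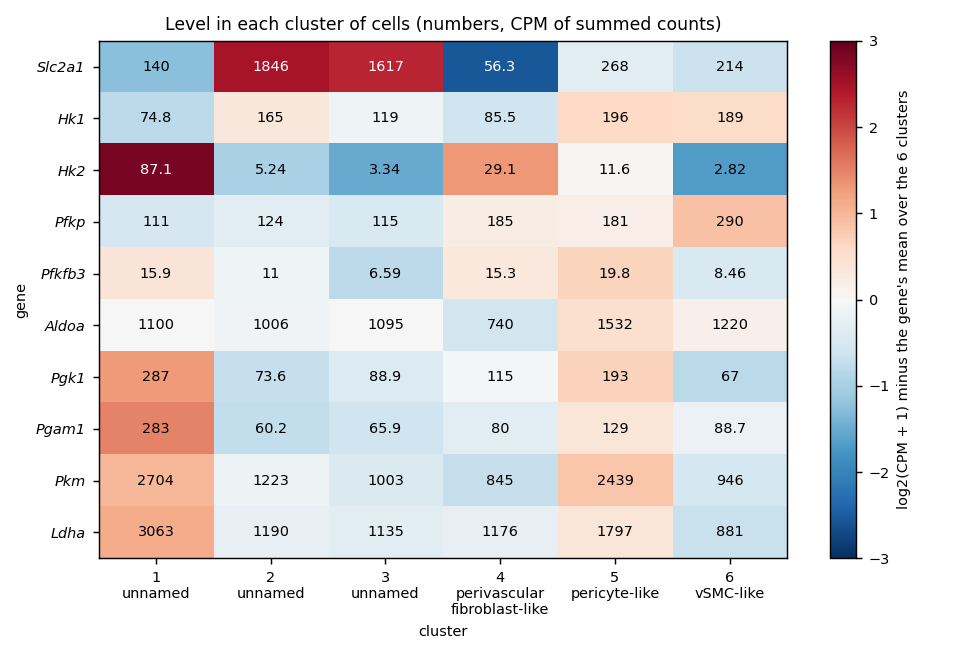
CPM of summed counts of the 10 genes in the 6 clusters (numbers), coloured by log2(CPM + 1) minus the gene's mean over the clusters. *Slc2a1* is highest in clusters 2 and 3, where endothelial markers were raised, and *Hk2*, *Pgk1*, *Pgam1*, *Pkm* and *Ldha* are highest in cluster 1.

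The perivascular fibroblast-like cluster held cells of both states, 26 uninjured and 18 injured tdTomato+ and 8 and 18 tdTomato- cells, with a median endothelial sum of 227 CPM. In its uninjured and injured tdTomato+ cells *Ldha* was at 689.6 and 2092 CPM, *Pkm* at 494 and 1533 CPM and *Pgk1* at 81.3 and 174 CPM. *Pgam1* was at 57 and 120.3 CPM, *Hk2* at 18 and 46 CPM and *Slc2a1* at 82.9 and 51 CPM. In its tdTomato- cells *Ldha* was at 831 and 1366 CPM and *Pkm* at 399.6 and 1043 CPM, whereas *Hk2*, at 42 and 28.2 CPM, and *Slc2a1*, at 17.1 and 29 CPM, went the other way than in tdTomato+ cells. *Pgk1* and *Pgam1*, which were called higher over all tdTomato- cells, differed by only 0.09 and 0.47 in the tdTomato- cells of this cluster. In this cluster 1 cell held 47.2% of the *Hk2* counts of uninjured tdTomato+ cells, and 1 cell held all 86 of uninjured tdTomato- cells. The median difference of the 10 genes in this cluster was 1.08 in tdTomato+ and 0.72 in tdTomato- cells. These values rest on few cells and were added after the clusters had been seen.

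Cell cycle RNA marked cluster 1, so injured cells with and without a count of the proliferation gene *Mki67* were set side by side after thinning. In tdTomato+ cells, 44 with and 56 without, *Ldha* was at 3343 and 3068 CPM, *Pkm* at 2734 and 2725 CPM and *Pgam1* at 294 and 205 CPM. *Hk2* was at 87.5 CPM in both. The median difference of the 10 genes was 0.00 there and -0.15 between the 24 and 78 tdTomato- cells. Single genes went both ways, from -0.70 for *Pfkp* to 0.52 for *Pgam1* in tdTomato+ and from -2.10 for *Pfkfb3* to 0.84 for *Hk2* in tdTomato- cells, where *Slc2a1* differed by -0.61.

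Several of the genes varied together among injured cells. After the mean of each group and plate was removed, log2(CPM + 1) of *Pgk1* and *Pgam1* had a Pearson correlation of 0.83 over 100 injured tdTomato+ cells, *Aldoa* and *Pgk1* of 0.76 and *Pkm* and *Ldha* of 0.74. *Hk1* and *Hk2* stood at -0.22. Of the 45 pairs of the 10 genes, 19 were over 0.3 in injured tdTomato+ and 12 in injured tdTomato- cells, and 3 and 2 in the uninjured groups. The share of pairs of other genes over 0.3 was not computed. Injured tdTomato+ cells span clusters 1 and 4, with *Ldha* at 3300 and 2092 CPM there. The cells share plates and differ in depth, with which the mean of the 10 genes correlated at 0.14 over all 421 cells of that depth or more.

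Over all 421 cells with 20000 counts or more, the genes most like the mean of the 10 by the same measure, out of 11850, were *Gm12868* (0.46), *Eno1* (0.43), *Hsp90ab1* (0.43), *Slc25a5* (0.42), *Cfl1* (0.41), *Sema7a* (0.39), *Actg1* (0.38), *Vcl* (0.38), *Nes* (0.38) and *Hnrnpk* (0.37). *Eno1*, enolase, is a glycolysis gene itself. *Gm12868* is annotated (GENCODE vM21, GRCm38) as antisense to *Slc2a1*, at chr4:119133749-119138801 on the minus strand, over the end of *Slc2a1* at chr4:119108711-119137983 on the plus strand. Whether counting used the strand is not given in the sources used here, so reads of the pair cannot be told apart. *Gm12868* held 8.36% to 11.3% as many counts as *Slc2a1* in the 4 groups, with Spearman correlations of 0.78 to 0.97 over the cells of a group. *Pitrm1*, which overlaps *Pfkp*, held 40.9% as many counts as *Pfkp*.

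Of 27 other glycolysis genes, 3 were higher after injury in tdTomato+ cells, *Gapdh* (2.59), *Bpgm* (1.43) and *Eno1* (2.08), and 6 lower, *Slc2a3* (-1.73), *Slc2a4* (-3.56), *Slc2a8* (-2.45), *Pfkm* (-1.12), *Aldoc* (-4.69) and *Ldhb* (-1.29). Of all genes 10.8% were higher and 34.3% lower, and 16 of the 27 reached the 10 CPM of the rule. The median of this list was -0.05. A single cell held 55.2% of the *Aldoc* counts of uninjured and 75% of those of injured tdTomato+ cells. With TMM factors 4 were higher, *Tpi1* added, and 4 lower, without *Pfkm* and *Ldhb*. *Gapdh*, glyceraldehyde 3-phosphate dehydrogenase, was at 255 and 1540.4 CPM in tdTomato+ and 270.4 and 716 CPM in tdTomato- cells. It was the 1 higher gene of the list in tdTomato- cells on the CPM scale (1.40, pairs 0.82 to 1.89), where *Slc2a4* (-2.32) and *Aldoc* (-5.69) were lower (all genes, 9.52% higher and 17% lower). *Eno1* was at 255 and 1079 CPM in tdTomato+ and 344 and 527 CPM in tdTomato- cells.

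The transporters of lactate moved apart. *Slc16a3*, the lactate exporter MCT4, was at 9.01 and 92.3 CPM in tdTomato+ and 3.24 and 167 CPM in tdTomato- cells, with differences of 3.22 (2.30 to 5.69) and 5.31 (4.57 to 6.59). *Slc16a1*, the transporter MCT1, known like GLUT1 from barrier endothelium, was at 88.9 and 7.55 CPM and 100.6 and 21.9 CPM, with -3.39 (-4.41 to -3.11) and -2.15 (-2.45 to -1.96). The endothelial sum was lower beside it, and its part in the difference was not tested. Of the 11 genes of lactate and pyruvate transport and entry, 1 was higher and 4 lower in tdTomato+ cells, the latter *Slc16a1* (-3.39), *Mpc2* (-1.01), *Pdk1* (-2.07) and *Pdk2* (-2.18), beside 10.8% and 34.3% of all genes. In tdTomato- cells 1 was higher and 3 lower, *Slc16a1* (-2.15), *Pdk1* (-1.30) and *Pdk4* (-1.86), beside 9.52% and 17%.

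Of 7 pentose phosphate genes, *Pgd*, 6-phosphogluconate dehydrogenase, and *Tkt*, transketolase, were higher in tdTomato+ cells, at 92 and 341 CPM (1.88) and 198 and 430.0 CPM (1.12), and none was lower, beside 10.8% and 34.3% of all genes. In tdTomato- cells *Pgd* was higher, at 86.8 and 247 CPM (1.50). Of 16 hypoxia genes outside glycolysis 3 were higher in tdTomato+ cells: *Hif1a*, the regulated subunit of HIF-1, at 29.5 and 89.4 CPM (1.57), the angiogenic factor *Vegfa* at 10.3 and 40 CPM (1.86) and the cytokine *Mif* at 87 and 596 CPM (2.76). The 7 lower ones were *Epas1* (-3.46), *Vhl* (-1.86), *Egln1* (-2.05), *Bnip3* (-1.50), *Ankrd37* (-4.30), *Ndrg1* (-4.21) and *Ddit4* (-2.59), of which *Epas1*, the HIF-2 subunit, is abundant in endothelial cells. Beside these 3 and 7 of 16 stand the same 10.8% and 34.3% of all genes. In tdTomato- cells 4 were higher, *Egln3* (2.06), *Vegfa* (2.16), *Adm* (1.15) and *Mif* (1.53), and *Ndrg1* (-1.83) was lower, while *Hif1a*, at 45.3 and 88.6 CPM (0.95), was called with TMM factors alone. There 9.52% of all genes were higher and 17% lower. In uninjured cells 1 cell held 37.1% and 41.5% of the *Vegfa* counts of the sorted populations. With TMM factors *G6pdx* was added to the higher pentose phosphate genes of tdTomato+ cells and *P4ha2* to their higher hypoxia genes, while *Mpc2* and *Bnip3* were no longer lower (all genes, 20.8% higher and 18.9% lower). *Ero1l* and *Ero1a*, symbols of 1 gene, were left out of the list, since *Ero1l* had counts on plate 211 alone and *Ero1a* on the other plates alone.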

How the data were processed

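The labels describe 503 Smart-seq3 libraries of single cells, for which the authors deposited whole-number counts of each gene (build mm10 in the submitters' processing notes). The aligner, the annotation and whether reads or molecules were counted are not given in the sources used here. Another 1465 columns could not be matched to these labels and were not used, and spike-in rows (0.0314% of counts) were left out. Cells needed 200 genes and under 20% mitochondrial counts, and were removed for *Gfap*, for *Ptprc* or for *Pecam1* above *Pdgfrb*, after the study's methods. The upper limit of 1200 genes in those methods was kept as an alternative. PCR copies are not independent molecules.

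Counts were summed per group and plate, scaled to CPM, with TMM factors (edgeR 4.0.16) or with DESeq2 1.42.0 size factors, and compared as log2(CPM + 1). TMM factors were tested on simulated sums in which a small set of genes changed evenly in both directions. That setting does not cover the uneven shift after injury in tdTomato+ cells. With 1 sample per group no model was fitted. Doublets were not called. Clusters came from Seurat 5.3.0 (R 4.3.3, 20 principal components, resolution 0.5), named from marker lists. Other steps used Python 3.11.15, numpy 2.4.6, pandas 2.3.3 and scipy 1.17.1. All 10 genes are named, with the called genes of the pathway lists and *Gapdh*, *Hif1a*, *Vegfa* and *Slc16a3*. The members and lists were chosen with earlier results of these data known. Alternatives were other scaling, a pseudocount of 10 CPM, means over cells, each plate left out, other cell filters, resolution 0.3 and no thinning. Without the rows that plate 211 alone holds or lacks, 11.3% of all genes were higher and 34.4% lower after injury in tdTomato+ cells, and 9.87% and 16.6% in tdTomato- cells.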

Additional observations from a re-analysis of the deposited data

Results flagged for a closer look

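Some rows of the deposited counts carry the name of a pseudogene or retrogene of a member, and no comparison used them. Of 13 such rows 7 held more than 3 counts over all cells, above the limit that a count of 0 allows, and this signal outside the measured rows is why they are given here. As a percent of the counts of the member, *Aldoart1* held 0.0845% and *Aldoart2* 0.0301% of *Aldoa*, *Pgk1-rs7* 0.100% of *Pgk1*, *Pgam1-ps2* 0.0487% and *Pgam1-ps1* 0.0304% of *Pgam1*, and *Ldha-ps* 0.00457% and *Ldha-ps2* 0.0151% of *Ldha*. How the counting treated reads shared by near-identical copies is not given in the sources used here, so the levels of these 4 genes are uncertain by an amount that was not tested.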

How the results depend on the processing

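The median differences of the 10 genes moved with the scale. After injury in tdTomato+ cells the median of 1.56 was 2.23 with TMM factors, 2.36 with DESeq2 size factors, 1.20 with a pseudocount of 10 CPM, 1.79 in cells with 1000 CPM or less of endothelial RNA and 0.98 with 100 CPM or less (10 and 25 cells). It was 4.01 under the limit of 1200 genes (10 and 10 cells), 1.34 without plate 211 and 1.43 without plate 213. In tdTomato- cells the median of 0.65 was 0.92 with TMM factors, 0.88 with DESeq2 size factors and 0.42 at 1000 CPM or less. Between the uninjured populations -0.09 became -0.83 under the limit of 1200 genes, -0.66 at 100 CPM or less and -0.76 at 1000 CPM or less. Between the injured populations 0.18 became 0.55 with TMM factors and 0.69 with DESeq2 size factors. The difference of injury effects, 0.56, was 0.95 with TMM factors, 1.13 with DESeq2 size factors, 0.015 at 100 CPM or less and -0.41 without plate 213. Of genes called between the populations, 1 higher uninjured gene became 0 with TMM factors and 0 with DESeq2 size factors, 2 higher injured genes became 4 with DESeq2 size factors, and 3 lower ones became 1 with TMM factors and 1 with DESeq2 size factors. After injury *Pfkfb3* of tdTomato+ cells turned to -1.10 at 100 CPM or less, and *Slc2a1* of tdTomato- cells to 0.37 at 100 CPM or less and 0.10 at 1000 CPM or less. Of 620 alternative values of single genes 570 kept their sign. The limit of 1200 genes left no injured tdTomato- cell, so comparisons with that group have no value. The causes were not tested. The limits of 1000 CPM and the values within cluster 4 were chosen after seeing the data. No paired analysis was possible because no result comes from a test, with 1 sample per group. The sorted populations share plates, and their differences are given within each plate beside the sums. *Hk2* and *Pfkfb3* had no count in most uninjured cells with or without thinning, so their uninjured levels rest on few cells.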
